A study of Rattus norvegicus with 6 samples.

Results

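The miRNAs described here are those often used as marks of neuroendocrine cells: miR-375, miR-9a, miR-129 and the cluster of miR-183, miR-96 and miR-182. They were measured in AR42J, an established cell line of the rat exocrine pancreas that is known to carry some endocrine traits. The members were taken by name from the alignments of small RNA reads to miRNA precursors. They comprised 9 of 383 precursors with reads: rno-mir-375, the miR-9a copies rno-mir-9a-1, rno-mir-9a-2 and rno-mir-9a-3, the miR-129 copies rno-mir-129-1 and rno-mir-129-2, and rno-mir-183, rno-mir-96 and rno-mir-182. One group of 3 libraries came from AR42J cells exposed to 200 µM sodium taurocholate, a bile salt, for 30 min, and the other group of 3 libraries came from untreated AR42J cells grown in the same medium. The libraries held 3343552, 3780777 and 3637092 miRNA reads with taurocholate, and 3070227, 3987307 and 2791878 miRNA reads in untreated cells. No label tells whether the 3 libraries of a group came from separate cultures, so p-values here reflect library-to-library spread alone, part or all of which may be technical. All 6 libraries are of 1 cell line, and total RNA was treated before ligation to free 3′ and 5′ ends and to remove methyl groups, as is done for tRNA fragments.

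In endocrine cells of the pancreas, miR-375 is known as one of the most abundant miRNAs of insulin-producing cells, where it limits insulin secretion. miR-9 is best known from the nervous system, where both arms of its hairpin are functional, and from insulin-producing cells, where it acts on the exocytosis machinery. miR-129 is a miRNA of neurons and endocrine tissue, and miR-183, miR-96 and miR-182 are made from 1 transcript and are known from sensory organs. A miRNA precursor is a hairpin, and either of its arms, named 5p and 3p, can give a mature miRNA of about the size read here. Bases 2 to 8 of the mature strand, the seed, set which mRNAs it pairs with.

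The mature sequences that the measurements turn on are given here from RefSeq for rat assembly GRCr8, 5′ to 3′, with the seed in capitals, because the position of read ends is set against them.
miR-9a-5p: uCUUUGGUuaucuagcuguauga
miR-9a-3p: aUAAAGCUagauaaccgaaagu
miR-375-3p: uUUGUUCGuucggcucgcguga
miR-129-5p: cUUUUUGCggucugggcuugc
miR-183-5p: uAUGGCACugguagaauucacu
miR-96-5p: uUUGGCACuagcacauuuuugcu
miR-182: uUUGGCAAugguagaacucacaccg
No 2 of these 7 strands shared a whole seed. The seeds of miR-96-5p and miR-182 matched at 6 of 7 bases and differed at position 8, and those of miR-183-5p and miR-96-5p matched at 6 of 7 bases and differed at position 2. miR-183, miR-96 and miR-182 lie together on the minus strand of chromosome 4 (GRCr8), with hairpins at chr4:59756044-59756153, chr4:59755841-59755946 and chr4:59752246-59752307 and a whole span of 3908 nt. The copies of miR-9a lie at chr2:175974971-175975059 (miR-9a-1), chr2:15933292-15933378 (miR-9a-2) and chr1:142849400-142849489 (miR-9a-3), all on the plus strand. miR-129-1 lies at chr4:58589711-58589782 on the plus strand, miR-129-2 at chr3:100657390-100657486 on the minus strand and miR-375 at chr9:83906582-83906656 on the minus strand.

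The strands miR-9a-5p, miR-182 and miR-9a-3p were abundant in AR42J cells, and the others were rare. Together the 9 precursors took 438194 of 20610833 reads, or 2.13%. Their share was 3.20%, 1.89% and 2.28% of miRNA reads with taurocholate, against 1.61%, 1.90% and 1.85% in untreated cells, so the groups overlapped and the taurocholate 1 library was highest. Levels are given as CPM, the reads of an arm scaled to the same total of miRNA reads in each library. Among 657 miRNA features, meaning a mature arm or a set of arms that a read matches equally, miR-9a-5p ranked 8 by mean level, miR-182 ranked 19 and miR-9a-3p ranked 47. miR-129-5p ranked 200, miR-375-3p just below it, miR-183-5p 281 and miR-96-5p 295. In each of the 6 libraries miR-9a-5p was above miR-182, miR-182 above miR-9a-3p and miR-9a-3p above miR-129-5p, with no overlap between neighbours over the libraries. Below that, the ranges of miR-129-5p, miR-375-3p, miR-183-5p and miR-96-5p overlapped with their neighbours, so their order did not hold in every library. CPM does not correct for how well each sequence ligates, so a difference in level between miRNAs is a difference in reads. In bulk samples, fewer cells that carry a miRNA and less of it per cell cannot be told apart.

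**Figure D1:**
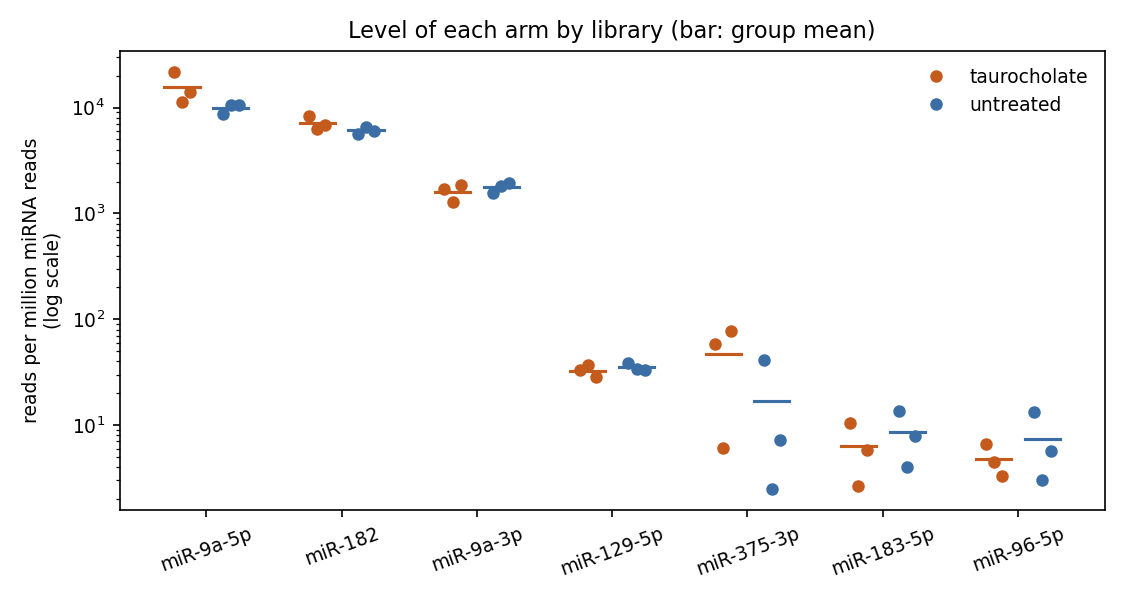
Level of each arm in every library, in CPM on a log scale, with taurocholate points left of untreated points and a bar at each group's mean. miR-9a-5p, miR-182 and miR-9a-3p lie above 1200 in every library, miR-129-5p lies between 28.3 and 38.8, and miR-375-3p spreads from 2.51 to 77.5.

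None of the members passed the test between the groups. Of the 7 member arms with enough reads to be tested with edgeR's quasi-likelihood test over 340 features, 0 had an adjusted p under 0.05, and over all features the share was 0%. At an unadjusted p under 0.05 there was 1 member of 7, miR-9a-5p, against 56 of all 340 features tested (16.5%). The CPM values of the groups did not overlap for the same 1 member of the 7, against 13.8% of all features. The median log2 fold change over all features was -0.05. With 3 libraries a group, an exact permutation test of a single value cannot go below p = 0.1.

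miR-9a-5p had 21896, 11299 and 13939 CPM with taurocholate, against 8730.3, 10576 and 10557 CPM in untreated cells. Every taurocholate library was above every untreated library, and taurocholate 1 stood far above the others. The means were 15711 ± 5516 CPM with taurocholate and 9954 ± 1060.1 CPM in untreated cells (SD, n = 3 each). The log2 fold change was 0.57 (SE 0.16) with an adjusted p of 0.131 by edgeR's quasi-likelihood test. DESeq2's Wald test gave 0.62 with an adjusted p of 0.0163, and by that tool miR-9a-5p was among 17 features called, of the 154 of 340 to which its filter on low counts gave an adjusted p (11%). Without the taurocholate 1 library the log2 fold change was 0.39 and its adjusted p 0.257. The 3 features whose pattern over the 6 libraries was most like that of miR-9a-5p were miR-140-3p, miR-3068-3p and miR-125b-5p. Their root mean square difference from it in centred log2 (CPM + 1) was 0.104, 0.113 and 0.122, against a median of 0.424 over 261 features.

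The other arm of the hairpin, miR-9a-3p, had 1691, 1287 and 1849 CPM with taurocholate, against 1549.7, 1821 and 1946 CPM in untreated cells. The groups overlapped. Its log2 fold change was -0.21 (SE 0.10, adjusted p 0.336 by edgeR's quasi-likelihood test). Arms were split at the middle of the hairpin, so miR-9a-3p as counted here holds most reads of the miR-9a-1 loop, described below. The nearest patterns to miR-9a-3p were those of let-7d-3p, miR-30c-5p and miR-32-3p, at root mean square differences of 0.042, 0.050 and 0.060 against a median of 0.250 over 261 features.

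The balance between the arms of miR-9a lay further toward 5p in every taurocholate library, but the difference did not pass the test over all miRNAs. There were 12.95, 8.78 and 7.54 reads of miR-9a-5p per read of miR-9a-3p with taurocholate, against 5.63, 5.81 and 5.43 in untreated cells. The untreated libraries lay within a narrow band, and all 3 taurocholate libraries lay above it. The means were 9.76 ± 2.83 with taurocholate and 5.62 ± 0.191 in untreated cells (SD, n = 3 each). On the log2 scale the difference was 0.76 (SE 0.27), with an unadjusted p of 0.0186 and an adjusted p of 0.309 by limma over 100 miRNAs with both arms read. Of those 100, 0 were called (0%), 14% had an unadjusted p under 0.05, and in 22% the groups did not overlap. Without taurocholate 1 the difference was 0.53. Most reads of the miR-9a-1 loop are counted on the 3p side of this ratio. With only reads that start within 5 nt of the most frequent start, an alternative chosen after seeing the data, the difference was 0.76.

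**Figure D2:**
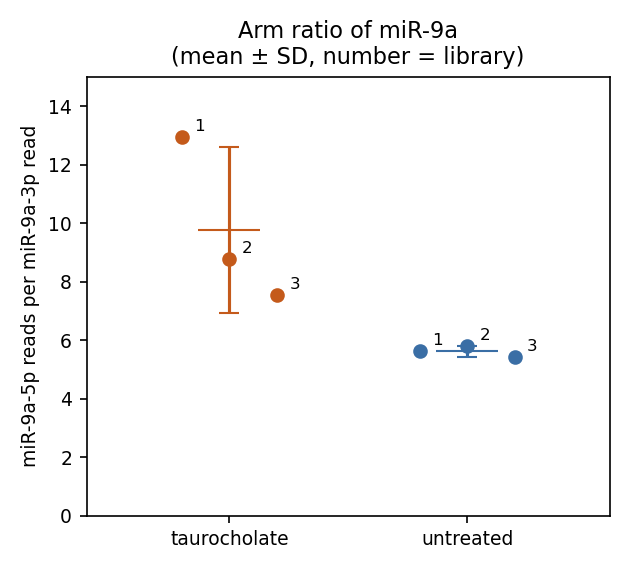
Reads of miR-9a-5p per read of miR-9a-3p in every library, with the mean and SD of the taurocholate group on the left and of the untreated group on the right. The 3 taurocholate libraries lie between 7.54 and 12.95 and the 3 untreated libraries between 5.43 and 5.81.

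The taurocholate 1 library also differed from the others in the last base of its reads. Of all its miRNA reads, 22.1% ended in a G that did not match the precursor, against 5.31% in untreated 1 and 1.20% to 1.89% in the other 4 libraries. The share of such reads in taurocholate 1 was 16.3% for miR-9a-5p (95% Wilson interval 16.03 to 16.56), 24.2% for miR-9a-3p (23.1 to 25.3) and 12.8% for miR-182 (12.5 to 13.2). Intervals cover counting error only, since reads without molecular identifiers are not independent molecules. With reads that match the precursor at every base alone, the log2 fold change of miR-9a-5p was 0.59, against 0.57 with all reads. The difference in arm ratio was then 0.87, against 0.76 with all reads. Both choices keep the taurocholate 1 library, and the part of its read ends in these differences was not tested.

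miR-9a is encoded by 3 copies, rno-mir-9a-1, rno-mir-9a-2 and rno-mir-9a-3, and their mature strands are the same. Of 198118 error-free reads of miR-9a precursors, 99.7% matched all 3 copies. The stretch between the arms, the loop, differs between copies and is shown here for that reason, again from RefSeq (GRCr8).
miR-9a-1 loop: gugguguggagucuuc
miR-9a-2 loop: guguauuggucuuc
miR-9a-3 loop: gugccacagagccguc
A read was counted as a loop read when it lay between the mature strands with an overlap of at most 3 nt with either. The loop of miR-9a-1 had 83, 119 and 183 reads with taurocholate, against 90, 108 and 112 reads in untreated cells. The groups overlapped. Of these 695 reads, 40.7% were exactly the 16 nt that lie between the mature strands, and a further 19.9% held 1 more base at each end. No read under 16 nt is listed, so shorter fragments of this loop could not be counted, and 63.9% of its reads were of 16 nt. Most of these loop reads lie past the middle of the precursor and were counted among the 34694 reads of miR-9a-3p. They are thus part of its level, arm ratio, start shares and read lengths. The most frequent loop reads are written here as sequenced.
16-nt loop read: gtggtgtggagtcttc
18-nt loop read: agtggtgtggagtcttca
The loop of miR-9a-3, of the same length, had 0 reads in all 6 libraries. The loop of miR-9a-2 had 10 reads over the 6 libraries, but it is 14 nt long and the shortest reads in the deposited alignments are 16 nt, so most of its fragments could not have been seen. Outside the loop, 58 error-free reads matched miR-9a-3 alone, of which 28 were in taurocholate 1, the library with many reads ending in an unmatched G. Of the error-free reads that reach base 24 counted from the miR-9a-3p start, 39 held G there, 23 of them in the same library. Likewise outside the loop, 1 error-free read matched miR-9a-1 alone and 1 matched miR-9a-2 alone.

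miR-182, the most abundant strand of its cluster, had 8274, 6258.5 and 6877 CPM with taurocholate, against 5675, 6591 and 5987 CPM in untreated cells. The groups overlapped, with taurocholate 1 highest and untreated 1 lowest. Its log2 fold change was 0.16 (SE 0.11, adjusted p 0.480 by edgeR's quasi-likelihood test), and an interval of 2 SE to either side ran from -0.05 to 0.38. The nearest patterns were those of miR-331-3p, miR-99b-3p and miR-101b-3p, at root mean square differences of 0.075, 0.090 and 0.094 against a median of 0.268 over 261 features.

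The other members of the cluster were far rarer in reads. miR-183-5p had 35, 10 and 21 reads with taurocholate, against 42, 16 and 22 reads in untreated cells. miR-96-5p had 22, 17 and 12 reads with taurocholate, against 41, 12 and 16 reads in untreated cells. In both the groups overlapped and untreated 1 was highest. There were 790, 2366 and 1191 reads of miR-182 per read of miR-183-5p with taurocholate, against 415, 1642 and 760 in untreated cells. The log2 fold changes were -0.59 (SE 0.58) for miR-183-5p and -0.72 (SE 0.62) for miR-96-5p, with adjusted p-values of 0.604 and 0.561 by edgeR's quasi-likelihood test. Without the untreated 1 library they turned positive, at 0.11 and 0.23. Between libraries of the same number, miR-183-5p was lower with taurocholate in all 3 pairs, though it is not known whether the numbers mark pairs. How many of all features share a direction in every pair was not counted. With the number as a block its log2 fold change was -0.57 (SE 0.23, adjusted p 0.349 by edgeR's quasi-likelihood test). For miR-96-5p the blocked value was -0.56 (SE 0.51, adjusted p 0.547), and it was lower in 2 of 3 pairs.

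miR-375-3p, the miRNA known for its abundance in insulin-producing cells, was low in AR42J cells and uneven between libraries. It had 58.6, 6.08 and 77.5 CPM with taurocholate, against 41.4, 2.51 and 7.16 CPM in untreated cells (10 to 282 reads in a library). The libraries taurocholate 1, taurocholate 3 and untreated 1 were high, the other 3 were low, and the groups overlapped. The highest library was 30.9 times the lowest, a wider spread than that of the other strands with reads in all 6 libraries, whose highest library was 1.37 to 5.17 times the lowest. The log2 fold change was 1.21 (SE 1.14, adjusted p 0.591 by edgeR's quasi-likelihood test), and it ranged from 0.66 without taurocholate 3 to 3.29 without untreated 1, with adjusted p-values of at least 0.259. In each pair of same-numbered libraries miR-375-3p was higher with taurocholate, though it is not known whether the numbers mark pairs. The share of all features with the same direction in every pair was not counted. With the number as a block its log2 fold change was 1.56 (SE 0.71, adjusted p 0.362 by edgeR's quasi-likelihood test).

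The 3 features with the pattern most like that of miR-375-3p were all of the miR-200 family, epithelial miRNAs known to hold cells in an epithelial state. Their root mean square differences in centred log2 (CPM + 1) were 0.257 for miR-200a-3p, 0.3496 for miR-200b-3p and 0.397 for miR-200c-3p, against a median of 1.68 over 261 features. miR-200a-3p had 135, 23.3 and 191 CPM with taurocholate, against 90.2, 8.78 and 15.4 CPM in untreated cells. miR-200b-3p had 209, 24.9 and 260.4 CPM with taurocholate, against 200.3, 21.3 and 43.7 CPM in untreated cells. Of the whole epithelial list (miR-200a, miR-200b, miR-200c, miR-141 and miR-429), all 5 miRNAs had reads, and their summed level was 63.7 to 593 CPM with taurocholate and 37.9 to 387 CPM in untreated cells, high and low in the same libraries as miR-375-3p. The part of these in the level of miR-375-3p was not tested.

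**Figure D3:**
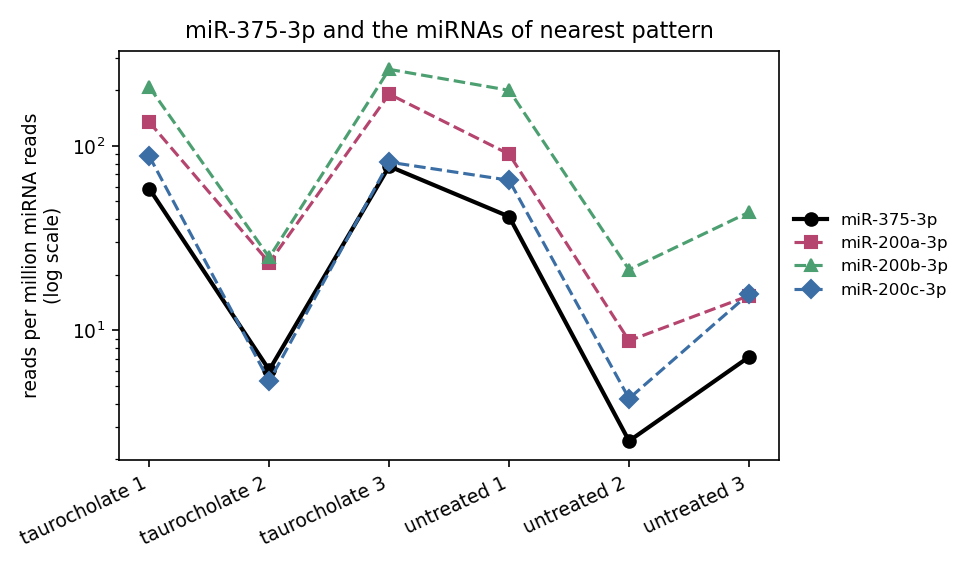
Level of miR-375-3p and of the 3 miRNAs with the nearest pattern in each library, in CPM on a log scale. Taurocholate libraries are on the left, and lines only join the points of 1 miRNA. All 4 are high in taurocholate 1, taurocholate 3 and untreated 1 and low in the other 3 libraries.

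miR-129-5p was low and steady. It had 33.2, 36.8 and 28.3 CPM with taurocholate, against 38.8, 33.9 and 33.3 CPM in untreated cells, and the highest library was 1.37 times the lowest. The groups overlapped, and the log2 fold change was -0.15 (SE 0.25, adjusted p 0.779 by edgeR's quasi-likelihood test). The nearest patterns were those of miR-708-3p, miR-22-5p and miR-148a-5p, at root mean square differences of 0.063, 0.074 and 0.084 against a median of 0.365. Of 342 error-free reads of the miR-129 precursors, 322 matched both copies, 15 matched miR-129-2 alone and 5 matched miR-129-1 alone.

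Apart from miR-9a, each hairpin gave nearly all its reads from 1 arm. All 658 reads of miR-375 came from the 3p arm, and miR-375-5p had 0 reads in all libraries. As an approximate limit for a count of 0, 3 reads would be 0.752 to 1.07 CPM depending on the library. All 146 reads of miR-183 came from its 5p arm. miR-129 gave 700 reads of 5p and 24 of 3p, and the 3p arm had 6, 7 and 6 reads with taurocholate, against 4, 1 and 0 reads in untreated cells. The groups did not overlap for miR-129-3p, as in 13.8% of the features tested, and at 0 to 7 reads a library it was too rare to be tested itself. miR-96 gave 120 reads of 5p and 4 of 16 nt in the second part of the hairpin, none of which was the annotated miR-96-3p. For miR-182 no arm ratio was measurable, because its reads lie past the middle of a RefSeq hairpin of 62 nt in which this is the sole annotated strand.

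The 5′ ends of the strands differed in how sharply they were placed. The 5′ end decides the seed, so a start shifted by 1 base gives another seed. miR-182 started at its annotated base in 99.86% ± 0.012 of reads with taurocholate and 99.86% ± 0.035 in untreated cells (SD, n = 3 each). miR-96-5p started there in all 120 reads. miR-9a-5p started at its annotated base in 86.8% ± 0.155 of reads with taurocholate and 87.0% ± 0.291 in untreated cells, and 1 base later in 11.6% ± 0.289 with taurocholate and 11.1% ± 0.255 in untreated cells. miR-9a-3p started 1 base later in 15.4% ± 0.739 with taurocholate and 15.2% ± 0.971 in untreated cells, with loop reads included in the total. In miR-183-5p the later start took 27.1% ± 3.78 of reads with taurocholate and 14.5% ± 7.15 in untreated cells, from 146 reads in all. The groups did not overlap, but miR-183-5p held 10 to 42 reads a library and was too rare to be tested for its start. Among the arms that were tested, the groups did not overlap in 12.1%.

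Of the starts that were tested, none passed the test between the groups. miR-183-5p and miR-96-5p had too few reads to be in it. The log2 odds of the main start were tested with limma in 207 arms, of which 0 were called (0%) and 4.35% had an unadjusted p under 0.05. The 5 members in that test had adjusted p-values from 0.725 to 0.999. The difference was -0.02 (SE 0.12) for miR-9a-5p, -0.07 (SE 0.14) for miR-9a-3p and 0.03 (SE 0.22) for miR-182. For miR-375-3p the groups did not overlap, as in 12.1% of all arms, but 2 of its untreated libraries held only 10 and 20 reads.

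The 3′ ends were looser than the 5′ ends and differed between the strands. Reads of miR-9a-5p were mostly 22 or 23 nt long. The 22-nt share was 43.5%, 39.8% and 41.8% with taurocholate, against 35.0%, 35.8% and 36.7% in untreated cells, and the 21-nt share was 10.8% ± 0.293 with taurocholate and 13.9% ± 1.05 in untreated cells (SD, n = 3 each). The groups did not overlap in either share, but single lengths were not tested, and in 29.5% of 207 arms even the mean lengths of the groups did not overlap. A single 22-nt sequence with C in place of T at base 21 had 5095 reads in taurocholate 1 (6.96%). It had 25 to 161 reads in each other library. The 22-nt read without a mismatch took 25.5% ± 0.660 with taurocholate and 21.8% ± 1.02 in untreated cells. The mean length of miR-9a-5p was 22.32 ± 0.0357 nt with taurocholate and 22.33 ± 0.0257 nt in untreated cells (SD, n = 3 each).

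Reads of miR-9a-3p were shorter in every taurocholate library, but the difference did not pass the test. Its mean read length was 21.29, 21.09 and 21.22 nt with taurocholate, against 21.50, 21.44 and 21.42 nt in untreated cells, with no overlap. The difference was -0.25 nt (SE 0.058), with an unadjusted p of 0.00610 and an adjusted p of 0.110 by limma over 207 arms. It ranked 10 of those 207 by p. The mean includes most reads of the miR-9a-1 loop, of which 63.9% were of 16 nt. The background in read length was wide, since 22.7% of arms had an unadjusted p under 0.05 and in 29.5% the groups did not overlap, and 0 were called (0%). It leaned the same way, as only 12 of the 47 arms with an unadjusted p under 0.05 by limma were longer with taurocholate. The median difference over all arms was -0.019 nt.

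The share of 22-nt reads was smaller in the taurocholate libraries, and the shares of 18, 19, 20 and 21 nt were larger, most of all that of 19 nt. Of the 909 reads of 18 nt over all libraries, up to 176 came from the miR-9a-1 loop. Reads of 19 nt took 13.2%, 17.7% and 13.5% of miR-9a-3p with taurocholate, against 8.13%, 9.76% and 9.32% in untreated cells. Reads of 22 nt took 59.8%, 55.0% and 58.9% with taurocholate, against 68.8%, 66.6% and 65.7% in untreated cells. Reads of 21 nt took 15.09% to 15.18% with taurocholate and 12.8% to 14.3% in untreated cells. The groups did not overlap in any of these shares, which were not tested one by one. The most frequent reads of 22 and 19 nt were the following, as sequenced.
22-nt miR-9a-3p read: ataaagctagataaccgaaagt
19-nt miR-9a-3p read: ataaagctagataaccgaa
Both start at the annotated base and so carry the same seed. By itself the 19-nt read took 12.0% ± 3.63 of miR-9a-3p with taurocholate and 7.88% ± 1.18 in untreated cells, and its groups overlapped. The 22-nt read took 36.1% ± 5.50 with taurocholate and 47.3% ± 0.505 in untreated cells, and its groups did not overlap. The same read with an unmatched G as last base had 858 reads in taurocholate 1 (15.2%) and 37 to 155 in each other library. Single reads were not tested. Without any 1 library the difference in mean length stayed between -0.30 and -0.20 nt.

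**Figure D4:**
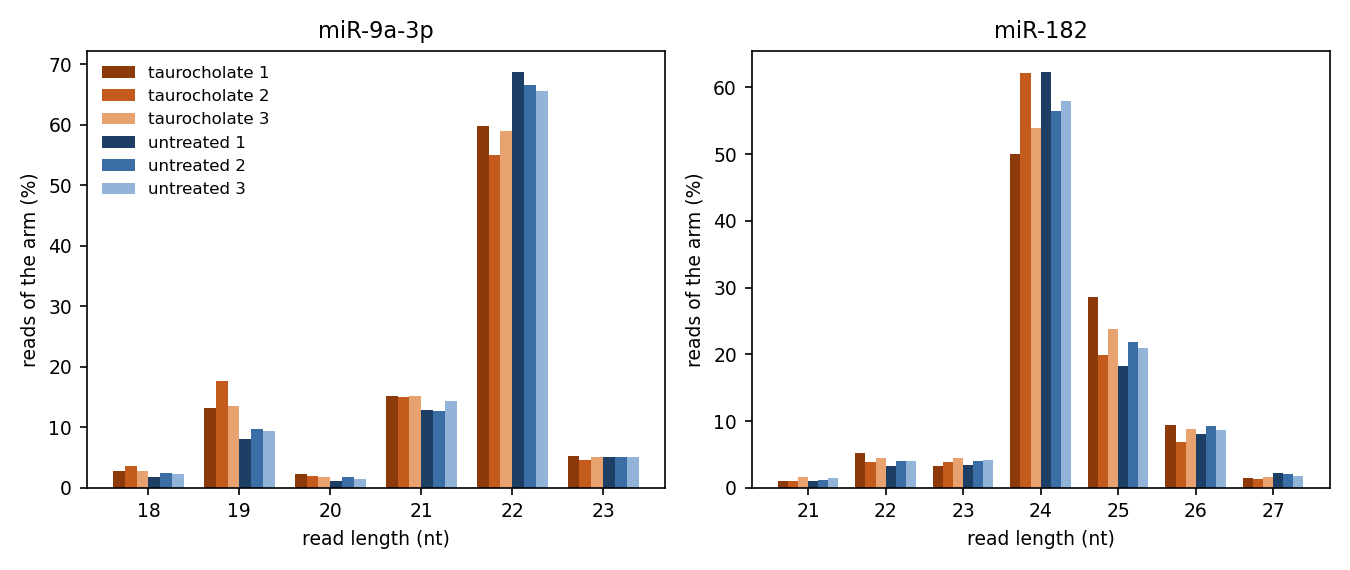
Share of reads of each length in miR-9a-3p (left) and miR-182 (right), in percent of the reads of the arm, with 1 bar for each library and taurocholate bars left of untreated bars. In miR-9a-3p the 19-nt bars are 13.2% to 17.7% with taurocholate and 8.13% to 9.76% in untreated cells; in miR-182 the bars of the groups overlap at 24 and 25 nt.

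miR-182 had the longest reads of these strands. Reads of 24 nt took 55.4% ± 6.16 with taurocholate and 58.9% ± 3.07 in untreated cells (SD, n = 3 each), and reads of 25 nt, the annotated length, took 24.1% ± 4.41 with taurocholate and 20.3% ± 1.87 in untreated cells. The mean length was 24.26 nt in both groups, with a difference of 0.00 nt (SE 0.037, adjusted p 0.999 by limma). Of all miR-182 reads, 46.9% ended in a base that did not match the precursor, against 48.4% of miR-129-5p reads, 24.3% of miR-9a-5p reads and 21.9% of miR-9a-3p reads. The alignments allow 1 mismatch, so longer tails that do not match could not be counted.

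The mismatched last base of miR-182 was most often T. A T took 25.6% ± 7.38 of miR-182 reads with taurocholate and 32.0% ± 4.40 in untreated cells, and an A took 14.1% ± 2.49 with taurocholate and 14.8% ± 1.46 in untreated cells. Over all libraries, 30575 reads of miR-182 were of 24 nt and carried C24T (positions from 1 at the 5′ end of the read) at the last base, and the read of the same length without a mismatch had 29964. Which was the more frequent differed between libraries. The read with C24T took 21.09% ± 6.69 of miR-182 reads with taurocholate and 24.998% ± 4.25 in untreated cells, and the read without a mismatch 21.04% ± 2.997 with taurocholate and 22.82% ± 2.35 in untreated cells (SD, n = 3 each). The 2 reads are shown with the base that differs in capitals.
24-nt miR-182 read ending in T: tttggcaatggtagaactcacacT
24-nt miR-182 read without mismatch: tttggcaatggtagaactcacacc
Among the reads listed, the T at position 24 stood mostly in reads that ended there. It stood in 39.5% of 77374 reads of 24 nt and in 0.363% of 45176 reads of 25 nt or more. With at most 1 mismatch allowed, longer reads with this T were listed only if all their other bases matched. Tails in which further unmatched bases follow the T are therefore not in these shares. miR-129-5p had the same kind of end, with C21T at the last base of 28.1% of its 700 reads.

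**Figure D5:**
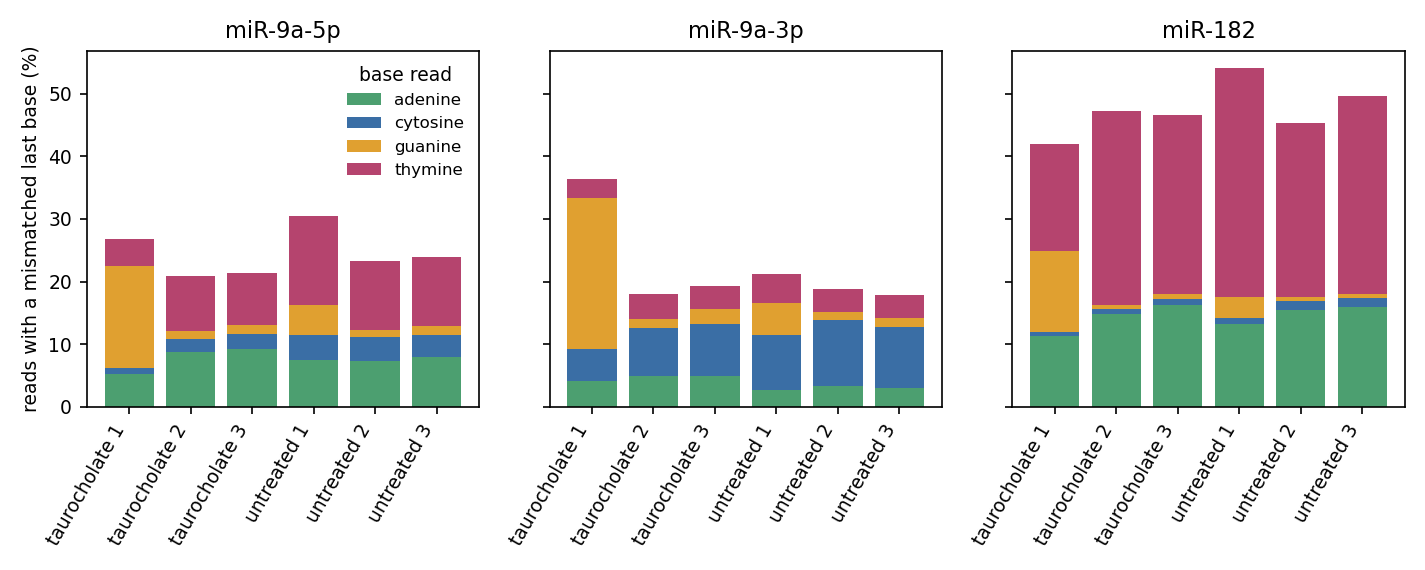
Share of reads whose last base does not match the precursor, in percent of the reads of each arm, split by the base read, with taurocholate libraries left of untreated libraries. Guanine takes 16.3%, 24.2% and 12.8% of reads in the taurocholate 1 library for miR-9a-5p, miR-9a-3p and miR-182, and thymine is the largest part for miR-182 in every library.

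Other miRNAs of endocrine and neuronal cells were set beside these members. Of an endocrine list of 9 miRNAs (miR-7a, miR-7b, miR-127, miR-132, miR-212, miR-153, miR-184, miR-204 and miR-335), all had reads and 9 arms or sets of arms could be tested. None passed edgeR's quasi-likelihood test, 3 had a positive and 6 a negative log2 fold change, and their median was -0.21, against -0.05 over all features. miR-7a-5p, known from endocrine cells of the pancreas, was the most abundant, with 54637, 41186 and 49472 CPM with taurocholate, against 54913, 59654 and 58633 CPM in untreated cells. The groups did not overlap, and its log2 fold change was -0.32 (SE 0.08, adjusted p 0.131). miR-7a-5p was thus above miR-9a-5p in every library. Reads that match miR-7a-5p and miR-7b-5p equally had the next highest level, with a log2 fold change of -0.58 (SE 0.19, adjusted p 0.189). Outside the miR-7 family the endocrine list was low. Its highest arm there, miR-184-3p, had 9.26 to 9.87 CPM with taurocholate and 7.77 to 13.7 CPM in untreated cells. miR-153-3p had at most 6 reads in a library. Of a neuronal list of 6 miRNAs (miR-124, miR-128, miR-137, miR-138, miR-218a and miR-219a), all had reads, 5 arms could be tested, and none passed. Among them 2 had a positive and 3 a negative log2 fold change, with a median of -0.05. miR-218a-5p had 2253 to 2494 CPM with taurocholate and 2323 to 2725 CPM in untreated cells, and miR-128-3p had 492 to 1113 CPM with taurocholate and 1096 to 1253 CPM in untreated cells. miR-124-3p, a hallmark miRNA of neurons, had at most 8 reads in a library.

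Markers of the labelled tissue were mixed. miR-148a-3p, abundant in exocrine pancreas, was at 283926 to 406366 CPM with taurocholate and 351911 to 421621 CPM in untreated cells, and miR-148b-3p was at 1849 to 2789 CPM with taurocholate and 2519 to 2922 CPM in untreated cells. miR-216a, miR-216b and miR-217, which mark acinar cells, had at most 4 reads in a library. Of the stroma and muscle list, all 7 miRNAs had reads, summing to 11876 to 16813 CPM with taurocholate and 14924 to 17000 CPM in untreated cells, and of the blood and immune list all 6 had reads, summing to 2774 to 4631 CPM with taurocholate and 2833 to 4790.3 CPM in untreated cells. Their leading members were miR-143-3p and miR-199a-3p in the first list and miR-142-3p and miR-486-5p in the second. Lower in the first list, miR-133a-3p had 1 to 170 reads in a library, miR-1-3p 0 to 15 and miR-206-3p 62 to 118. miR-143-3p, of smooth muscle, was at 9662 to 12964 CPM with taurocholate and 11669 to 13392 CPM in untreated cells, and miR-142-3p, of blood cells, was at 1323 to 2189 CPM with taurocholate and 948 to 1670.2 CPM in untreated cells. miR-122-5p, which marks liver, was at 6.88 to 23.6 CPM with taurocholate and 18.6 to 26.7 CPM in untreated cells. None of the arms of these lists passed edgeR's quasi-likelihood test.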

How the data were processed

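Small RNA libraries of AR42J cells, 3 with taurocholate and 3 untreated, were compared; groups and replicate numbers came from the sample labels. The deposited files list, per the file headers, every alignment of a collapsed read to a miRNA precursor together with its count. Per the submitters' processing notes, FastQC, cutadapt and Novoalign 2.07.11 were used. Which precursor release or genome build was aligned to is not given in the sources used here. Reads of 16 to 28 nt with at most 1 mismatch are listed. Alignments to tRNA were not used here.

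Each read sequence was counted 1 time per library. Arms were split at the middle of the precursor, whose length was that of the RefSeq (GRCr8) entry in 364 of 383 cases and was otherwise read from the alignments. Most miR-9a-1 loop reads were thus counted as miR-9a-3p. Mature sequences of all members matched RefSeq by name. Levels were tested with edgeR 4.0.16 (R 4.3.3; TMM, filterByExpr, quasi-likelihood), fitting group alone to all 6 libraries. Arm ratios (log2, pseudocount 0.5, at least 10 reads per arm on average), log2 odds of the main start and mean read length (at least 100 reads on average) were tested with limma 3.58.1. p-values were Benjamini-Hochberg adjusted over all features, with 0.05 as threshold. CPM carries no TMM factor, while fold changes do. On simulated counts of 340 miRNAs, 40 of them changed, edgeR recovered 27% of the 2-fold changes and 89% of the 4-fold changes. Intervals of shares are Wilson 95%. Alternatives were DESeq2 1.42.0, other scaling, filters and read choices, and each library left out. For same-numbered libraries the deviations correlated at 0.19, 0.62 and 0.13 over 266 features, but taurocholate 3 and untreated 1 reached 0.47. Whether the numbers mark pairs is thus not known, and the number was a block in an alternative fit alone. The members and lists were chosen with earlier results of these data known. All member arms are named, with, for each arm of at least 10 CPM, the 3 features of nearest pattern, and the 2 most abundant members of each list. Outside these rules, some other list members are named, such as miR-124-3p, miR-153-3p and miR-184-3p.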

Additional observations from a re-analysis of the deposited data

How the results depend on the processing

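The number of arms called differed from 0 under few alternatives: 17 by level with DESeq2, 1 by arm ratio with at least 100 reads per arm, and 2 by read length with at least 1000 reads per arm. Leaving out 1 library gave 0 called by level, 5′ end and read length in each case, and 0 to 1 by arm ratio (1 without untreated 3). A replicate block gave 0 called for all 4 measures and changed no call. Of 207 values of the 18 tested member differences under alternatives, 191 kept their direction and their side of the threshold, 1 (miR-9a-5p with DESeq2, 0.62) passed it and 15 changed sign. Small differences turned: miR-129-5p by level with error-free reads (0.12), miR-129-5p by 5′ end with reads that start near the main start (-0.49, an alternative chosen after seeing the data), miR-182 by 5′ end with error-free reads (-0.18), and miR-9a-5p by length with error-free reads (0.071 nt) or reads at the main start alone (0.013 nt). With 1 library left out, the log2 fold change by level ranged from -0.38 to 0.065 for miR-129-5p, -1.04 to 0.11 for miR-183-5p and -1.07 to 0.23 for miR-96-5p. The 5′ end difference of miR-182 ranged from -0.17 to 0.16. Its length difference ranged from -0.034 to 0.028 nt, and that of miR-9a-5p from -0.027 to 0.0077 nt. The cause was not tested. Depth limits miR-375-3p, miR-183-5p, miR-96-5p and miR-129-3p, which had under 50 reads in 1 or more libraries.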
